A study of Mus musculus with 6 samples.

Results

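The keratin genes of mouse skin squamous cell carcinoma cells were examined in cells sorted by surface integrin alpha6 (Itga6) and CD80. They were taken as the protein-coding genes of the expression table whose symbol is Krt followed by a number and at most 1 letter, which leaves out the keratin-associated proteins. The rule found 53 of 55385 genes in the table. By type, 28 were type I, 24 were type II, and Krt88 was assigned to neither. On GRCm38, 27 of the 53 genes lay on chromosome 11 and 26 on chromosome 15, where Krt18 was the single type I gene.

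The tumours had been induced in mouse skin with DMBA and TPA, a carcinogen and a tumour-promoting phorbol ester. The series describes the Itga6hi CD80pos cells as tumour stem-like and the Itga6low CD80neg cells as differentiated cancer cells, and 2 polyA RNA-seq libraries of each group were compared. The genotype, strain, sex and age of the mice are not given in the sources used here, and neither is the number of tumours behind a library. A group of 2 Itga6hi CD80neg libraries was not analysed here. Nothing in the labels states that the replicates came from separate animals, so p-values measure the spread between these libraries, which may be technical. Expression was given as TPM, transcript levels scaled to a fixed sum per library, and sequencing depth cannot be read from it. The transcripts of the sorting markers differed in the sorted direction. Itga6 was at 178 and 339 TPM in the Itga6hi CD80pos libraries and at 1.50 and 1.65 TPM in the Itga6low CD80neg libraries, and Cd80 was at 6.24 and 1.89 TPM against 0.642 and 0.563 TPM.

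Keratins are the intermediate filament proteins of epithelia, and each filament is built from pairs of an acidic type I and a basic type II chain. In skin, KRT14 and KRT5 are the pair of the basal layer and KRT10 and KRT1 that of the differentiating suprabasal layers. KRT6, KRT16 and KRT17 are known for their appearance in wounded, hyperproliferative and neoplastic epidermis, and a larger set of keratins is made in the hair follicle and the hair shaft.

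The makeup of the libraries differed strongly outside the keratins. Haemoglobin transcripts took 70.9% and 50.4% of all TPM in Itga6low CD80neg replicates 1 and 2, against 0.0185% and 0.00621% in the Itga6hi CD80pos libraries. Of 7 red cell markers, all 7 were called lower in Itga6hi CD80pos by limma, which called 9.48% of all 13474 tested genes lower. Their summed level was 185 and 62.5 TPM against 711095 and 504900 TPM, led by Hbb-bs. All 9 of 9 fibroblast markers were also called lower, with a summed level of 8.64 and 9.37 TPM against 8904 and 5438 TPM, and none was at 0 in both Itga6hi CD80pos libraries. Of 8 leukocyte markers, 5 were tested and 2 called lower, with a summed level of 1077 and 744 TPM against 591 and 2589.7 TPM. Most of that sum was S100a9, which keratinocytes can also express. Of 4 muscle markers 3 were tested and called lower, and of 4 endothelial markers 1 was tested and not called. Testing required at least 1 TPM in at least 2 libraries. The called muscle and leukocyte markers, and some red cell and fibroblast markers such as Alas2 and Lum, met this only through Itga6low CD80neg. Their calls are thus not independent of that filter. The part of these other transcripts in the keratin differences was not tested. Each result is therefore given on the deposited scale and within the keratins, where the other transcripts do not enter the sum.

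Keratin transcripts were far more abundant in the Itga6hi CD80pos libraries, and the same 8 genes made up nearly all of them in both groups. The 53 keratins summed to 83881.5 and 74987.1 TPM in Itga6hi CD80pos replicates 1 and 2, and to 5173 and 15252 TPM in Itga6low CD80neg replicates 1 and 2. They took 7.94% ± 0.629 (SD, n = 2) of all TPM in the first group and 1.02% ± 0.713 (SD, n = 2) in the second. With haemoglobin transcripts left out of the total these shares were 8.39% and 7.50% against 1.78% and 3.07%, and the groups still did not overlap. Relative to the summed TPM of 12 other epithelial genes, among them the junction genes Cdh1 and Cldn1, the keratin level overlapped between groups. It was 29.3 and 24.6 TPM of keratin per TPM of these genes against 25.7 and 15.8. Perp made most of that sum in every library, at 1866 and 1940 TPM against 127 and 663 TPM. With the 12 genes weighted equally instead, the keratin level was higher in both Itga6hi CD80pos libraries than in both Itga6low CD80neg libraries. In bulk libraries fewer epithelial cells and less keratin RNA per cell cannot be told apart. With 2 libraries against 2, an exact two-sided permutation test of a single value cannot go below p = 0.333.

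**Figure D1:**
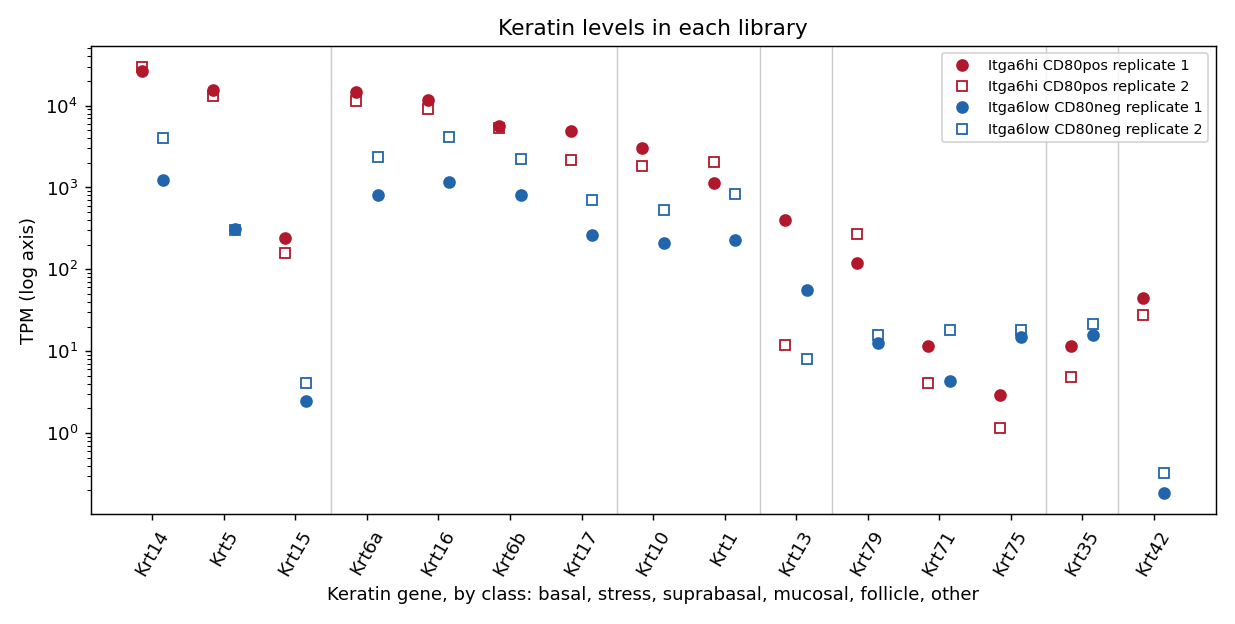
TPM of the 15 keratins whose group mean reached 10 TPM in at least 1 group, on a log axis, with 1 point per library. The 8 leading keratins lie highest in all 4 libraries, and Krt5, Krt15 and Krt42 show the widest gaps between the groups.

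Krt14, Krt5, Krt6a, Krt6b, Krt16, Krt17, Krt10 and Krt1 held the first 8 ranks among the keratins in all 4 libraries. Together they made 98.9% and 99.3% of keratin TPM in Itga6hi CD80pos and 97.0% and 99.0% in the Itga6low CD80neg libraries. Both groups thus carried the basal and stress keratin set of squamous epithelium, while the simple-epithelial keratins Krt8 and Krt18 stayed under 3 TPM. At the other end, 19 of the 53 keratins were under 1 TPM in every library, and Krt34 and Krt40, both hair shaft keratins, were listed at 0 in all 4. Of the 53 genes, 28 reached the filter for testing, at least 1 TPM in at least 2 libraries, and 25 did not. Of those 25, Krt31 had the highest value, 4.51 TPM in 1 library.

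In log2(TPM + 1) of the deposited values, limma called 10 of the 28 tested keratins higher in Itga6hi CD80pos and 2 lower, at a Benjamini-Hochberg adjusted p under 0.05. Of all 13474 genes tested, 57.0% were called higher and 9.48% lower. The median log2 fold change was 1.00 over the tested keratins and 1.27 over all tested genes. The share of keratins called was thus below the background on this scale, and the counts are not a result about keratins. Of the 10 called higher, Krt42, Krt12 and Krt18 passed the filter only through the Itga6hi CD80pos libraries, where they were high. Their calls are thus not independent of the filter. A fit with 1 library left in a group takes its spread within groups from the other group alone. Without replicate 1 or 2 of Itga6hi CD80pos the median over all tested genes stayed at 1.24 and 1.31, but the calls fell. Without replicate 1 of that group limma called 0 of the 13474 genes, and so 0 keratins in either direction, although 6 were higher and 4 lower where p was left unadjusted at 0.05. Without its replicate 2, 3 were called higher and 0 lower, against 7 and 1 by unadjusted p, and of all genes 353 were higher and 174 lower.

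A second fit set every library to the same total keratin TPM, so that a fold change is a change in a gene's share of keratin transcripts. On that scale 3 keratins were called higher in Itga6hi CD80pos, Krt5, Krt15 and Krt42, where 0.497% of all tested genes were higher. In the same fit 14 keratins were lower, where 23.8% of all tested genes were lower and the median over all of them was -1.33 on the log2 scale. Among the 14, Krt78 passed the filter only through the Itga6low CD80neg libraries, so its call is not independent of the filter. Without Itga6hi CD80pos replicate 1 these counts became 1 higher and 1 lower, where 69 of all genes were higher and 591 lower. Without its replicate 2 they became 2 higher, Krt5 and Krt12, and 0 lower, where 79 and 683 of all genes were called. The calls that held in all 5 scalings tried were Krt5, Krt15 and Krt42 higher and Krt75 and Krt73 lower. The 5 scalings use the same 4 libraries. The share of all tested genes called in all 5 was not counted. It cannot exceed 0.497% for higher, the share with the keratin total, or 9.48% for lower, the share in deposited TPM. Of the 3 scalings that used other references, the median of ratios called 4 keratins higher and 7 lower where 10.2% and 11.9% of all genes were called. With haemoglobin left out of the total 4 were higher and 6 lower, against 7.72% and 10.8% of all genes. With libraries set to the 12 epithelial genes 3 were higher and 3 lower, against 0.601% and 11.7%.

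**Figure D2:**
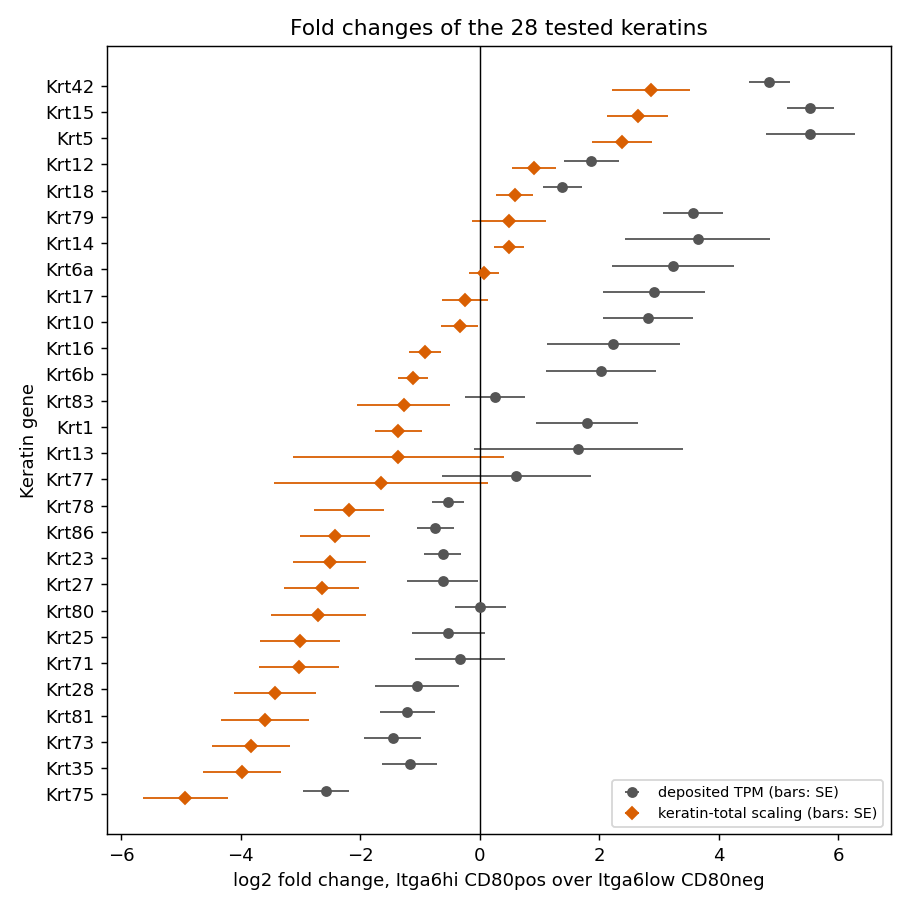
Log2 fold change of the 28 tested keratins, Itga6hi CD80pos over Itga6low CD80neg, with standard errors from limma, on the deposited TPM and with every library set to the same keratin total. Krt5, Krt15 and Krt42 stay above 0 on both scales, and Krt75 and Krt73 stay below 0.

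The basal keratins were the class that differed most in level. Krt14 was at 26606 and 29432 TPM in the Itga6hi CD80pos libraries and at 1244 and 4000.5 TPM in the Itga6low CD80neg libraries. Its log2 fold change was 3.65 ± 1.21 (SE, adjusted p = 0.0430 by limma), and within the keratins it was 0.49 ± 0.26 (SE, adjusted p = 0.174), which did not pass. Krt14 was the most abundant keratin of both Itga6hi CD80pos libraries and of Itga6low CD80neg replicate 1, and Krt16 exceeded it in replicate 2.

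Krt5, the type II partner of Krt14 in basal keratinocytes, showed the larger gap. Its level was 15307 and 13058 TPM against 307 and 301 TPM. The 2 Itga6low CD80neg libraries nearly coincided for Krt5, with replicate 2 at 0.982 times replicate 1, although their keratin totals stood 2.95-fold apart and Krt14 stood 3.22-fold apart. The log2 fold change of Krt5 was 5.53 ± 0.75 (SE, adjusted p = 0.00575 by limma) on the deposited scale and 2.38 ± 0.50 (SE, adjusted p = 0.0236) within the keratins. Within the keratins Krt5 stayed called with each library left out in turn, at adjusted p values from 0.00470 to 0.0148. On the deposited scale leaving out a library gave 0.00930 to 0.0882.

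Krt15, a type I keratin of basal keratinocytes and of the hair follicle bulge, was at 239.9 and 158 TPM against 2.49 and 4.08 TPM. It was thus a minor keratin in every library, under 1% of the level of Krt14. On the log2 scale it differed by 5.54 ± 0.39 (SE, adjusted p = 0.00235 by limma), and 2.65 ± 0.51 (SE, adjusted p = 0.0195) within the keratins. With a library left out, the second adjusted p ranged from 0.0116 to 0.533, the call being lost without either Itga6hi CD80pos library.

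Krt42, a type I keratin whose human counterpart is a pseudogene, was grouped with neither the basal nor the follicle keratins. It stood at 44.3 and 27.8 TPM in both Itga6hi CD80pos libraries and at 0.184 and 0.326 TPM in the Itga6low CD80neg libraries. Krt42 passed the filter for testing only through the Itga6hi CD80pos libraries. The log2 fold change was 4.85 ± 0.34 (SE, adjusted p = 0.00235 by limma) and within the keratins 2.87 ± 0.66 (SE, adjusted p = 0.0283, from 0.00920 to 0.337 with a library left out). Krt42 lies at chr11:100262882-100269871, between which and Krt14 at chr11:100203162-100207548 lie Krt16 at chr11:100246091-100248902 and Krt17 at chr11:100256217-100261029, all on the minus strand of GRCm38. Krt15 lies further along the same cluster at chr11:100131758-100135928.

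As shares of keratin TPM, the basal keratins took 50.3% and 56.9% in the Itga6hi CD80pos libraries and 30.0% and 28.2% in the Itga6low CD80neg libraries. The group means were 53.6% ± 4.68 and 29.1% ± 1.27 (SD, n = 2 each). The difference was larger than the spread within either group. Krt5 alone took 18.2% and 17.4% of keratin TPM against 5.93% and 1.98%, while Krt14 took 31.7% and 39.2% against 24.1% and 26.2%.

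**Figure D3:**
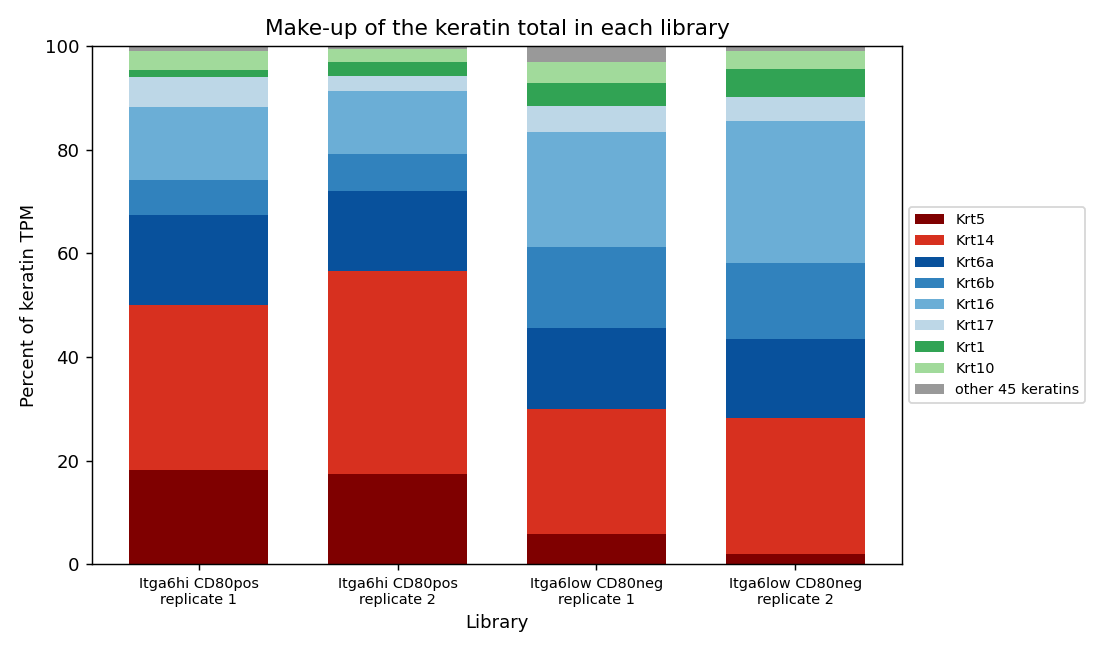
Percent of total keratin TPM taken by the 8 leading keratins and by the other 45 together in each of the 4 libraries, as stacked bars that start at 0, with basal genes in red, stress genes in blue and suprabasal genes in green. Krt5 takes 18.2% and 17.4% in Itga6hi CD80pos and 5.93% and 1.98% in Itga6low CD80neg, where the blue stress genes sum to 58.5% and 61.9%.

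The stress keratins made the other large part. They took 44.0% and 37.5% of keratin TPM in Itga6hi CD80pos and 58.5% and 61.9% in the Itga6low CD80neg libraries, with means of 40.8% ± 4.65 and 60.2% ± 2.37 (SD, n = 2 each). In level 2 of the 4 genes were called higher in Itga6hi CD80pos, near the 57.0% of all tested genes, which is not a result about stress keratins. As shares of keratin TPM 2 of the 4, Krt16 and Krt6b, were called lower and none higher, where 23.8% of all tested genes were lower.

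Krt16, a type I stress keratin, was at 11846 and 9080.25 TPM against 1149.8 and 4186 TPM. Its log2 fold change of 2.24 ± 1.11 (SE) did not pass on the deposited scale (adjusted p = 0.123 by limma). Its share of keratin TPM was 14.1% and 12.1% against 22.2% and 27.4%, a log2 difference of -0.92 ± 0.26 (SE, adjusted p = 0.0484). Krt16 thus changed sign with the scale, and its call within the keratins was lost with any library left out (adjusted p from 0.0543 to 0.581).

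Krt6b, one of the type II stress keratins, was at 5607 and 5400.3 TPM against 806 and 2227 TPM. The deposited log2 fold change, 2.04 ± 0.92 (SE), missed the threshold (adjusted p = 0.0978). Its share of keratin TPM was 6.68% and 7.20% against 15.6% and 14.6%, and there its log2 fold change was -1.12 ± 0.25 (SE, adjusted p = 0.0270 by limma). Its close paralog Krt6a was at 14603 and 11468.5 TPM against 809 and 2323 TPM. It was called higher, by 3.24 ± 1.03 on the log2 scale (SE, adjusted p = 0.0378). The share of Krt6a in keratin TPM, 17.4% and 15.3% against 15.6% and 15.2%, overlapped between groups. The ratio of Krt6a to Krt6b was 2.60 and 2.12 in the Itga6hi CD80pos libraries and 1.00 and 1.04 in the Itga6low CD80neg libraries.

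How reads were divided between paralogs bears on these values. Of the 31-base words in the transcripts of Krt6a, 55.1% also occur in another gene, most often Krt6b, and of those of Krt6b 57.0% do. For Krt16 the share was 51.9% and for Krt14 29.2%, but for Krt5 it was 12.8%, for Krt42 5.29%, for Krt15 3.89% and for Krt75 1.48%. The values of Krt6a, Krt6b and Krt16 are therefore uncertain as single genes. Summed, Krt6a and Krt6b took 24.1% and 22.5% of keratin TPM in Itga6hi CD80pos and 31.2% and 29.8% in the Itga6low CD80neg libraries.

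Krt17, the type I stress keratin also made in the follicle outer root sheath, was at 4889 and 2144 TPM against 262 and 702 TPM. It was called higher, by 2.91 ± 0.85 on the log2 scale (SE, adjusted p = 0.0299 by limma), and its share of keratin TPM, 5.83% and 2.86% against 5.07% and 4.60%, overlapped between groups. The Itga6hi CD80pos libraries thus differed from each other more than the groups did in the share of Krt17.

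The suprabasal keratins were present in both groups and were minor beside the basal and stress keratins. Krt10 was at 3019 and 1837 TPM against 209 and 526 TPM, and it was called higher by 2.82 ± 0.75 on the log2 scale (SE, adjusted p = 0.0227 by limma). Krt1, its type II partner, was at 1118.5 and 2052 TPM against 228 and 828 TPM, with a log2 fold change of 1.80 ± 0.85 (SE) and an adjusted p of 0.111. Neither level overlapped between the groups.

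Of the 6 suprabasal keratins, 4 were tested, 1 was called higher and none lower in the deposited values, where 57.0% and 9.48% of all tested genes were. Their share of keratin TPM was 4.94% and 5.19% in the Itga6hi CD80pos libraries and 8.73% and 8.89% in the Itga6low CD80neg libraries, a difference larger than the spread within groups. Krt1 took 1.33% and 2.74% of keratin TPM against 4.42% and 5.43%. Its log2 fold change there was -1.36 ± 0.40 (SE, adjusted p = 0.0499 by limma), just under the threshold, and -1.87 to -0.839 with a library left out. Krt10 took 3.60% and 2.45% against 4.04% and 3.45%, which overlapped. Relative to Krt5, Krt1 stood at 0.0731 and 0.157 in the Itga6hi CD80pos libraries and at 0.744 and 2.75 in the Itga6low CD80neg libraries.

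Shares of a closed total move against each other, and Krt14 and Krt5 are large enough to move all others. With those genes left out of the total to which libraries were set, Krt16 was at a log2 fold change of -0.31 (adjusted p = 0.663 by limma), Krt6b at -0.51 (adjusted p = 0.456) and Krt1 at -0.75 (adjusted p = 0.335), so their lower calls ended. Krt5, Krt15 and Krt42 stayed called higher, at 2.98, 3.21 and 3.27. Krt75 and Krt73 stayed called lower, at -4.51 and -3.40. This setting was chosen after the data were seen.

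The pairs of type I and type II keratins did not keep 1 ratio across the groups. Krt5 stood at 0.575 and 0.444 TPM per TPM of Krt14 in the Itga6hi CD80pos libraries and at 0.247 and 0.0754 in the Itga6low CD80neg libraries, which did not overlap. Krt6a stood at 1.23 and 1.26 per TPM of Krt16 against 0.704 and 0.555. Krt6b per Krt17 went the other way, at 1.15 and 2.52 against 3.08 and 3.17. Krt6a, Krt6b and Krt16 are uncertain as single genes, as given above, so these stress keratin ratios are uncertain too.

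Krt1 per Krt10 was 0.371 and 1.12 against 1.09 and 1.57 and overlapped between the groups. Summed over the family, type II keratins stood at 0.782 and 0.756 TPM per TPM of type I keratins in the Itga6hi CD80pos libraries and at 0.752 and 0.608 in the Itga6low CD80neg libraries. These ratios did not overlap, but the nearest libraries of the groups were closer together than the libraries within either group. Within a group, Krt5 per Krt14 stood 3.27-fold apart in the Itga6low CD80neg libraries, and Krt1 per Krt10 stood 3.01-fold apart in the Itga6hi CD80pos libraries.

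**Figure D4:**
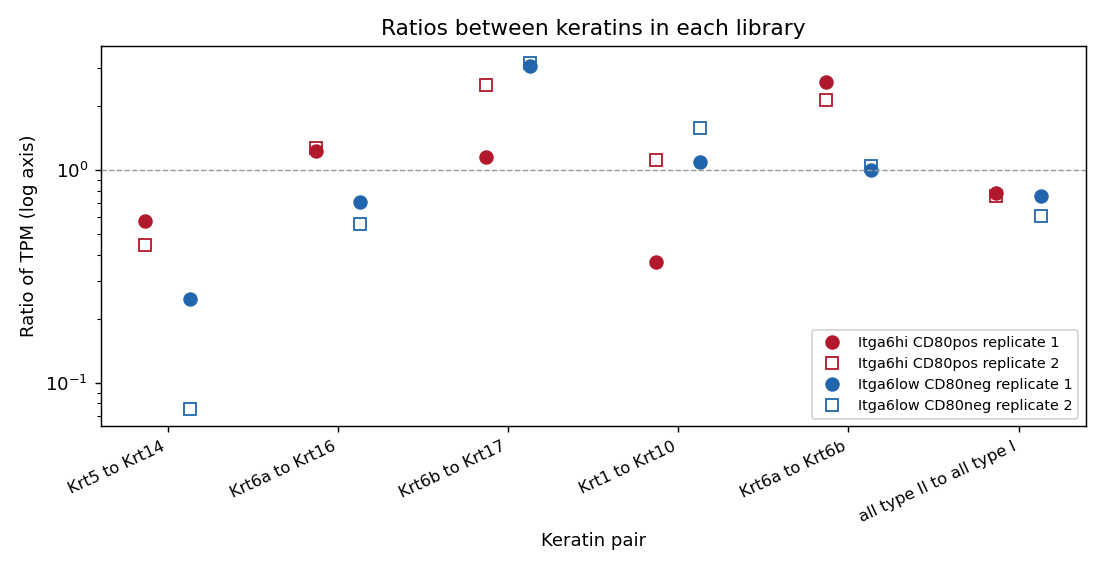
Ratio of TPM within keratin pairs in each of the 4 libraries, on a log axis. Krt5 per Krt14 and Krt6a per Krt16 are higher in both Itga6hi CD80pos libraries, Krt6b per Krt17 is lower in both, and Krt1 per Krt10 overlaps. The values of Krt6a, Krt6b and Krt16 are uncertain as single genes.

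The keratins of the hair follicle were a small part of keratin TPM in both groups and took a larger share of it in Itga6low CD80neg. In the deposited values, of 9 keratins of the inner root sheath, companion layer and hair canal 7 were tested, of which 1 was called higher and 2 lower, and of 15 hair shaft keratins 4 were tested and none was called. As shares of keratin TPM, 6 and 3 of them were called lower and none higher. Of all tested genes, 57.0% were higher and 9.48% lower in deposited TPM, and 23.8% were lower with the keratin total. The follicle genes together took 0.215% and 0.393% of keratin TPM in Itga6hi CD80pos and 1.39% and 0.868% in the Itga6low CD80neg libraries.

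Krt75, a type II keratin of the companion layer between the outer and inner root sheath, was at 2.95 and 1.17 TPM in the Itga6hi CD80pos libraries and at 14.9 and 18.0 TPM in the Itga6low CD80neg libraries. It was higher in Itga6low CD80neg even in deposited TPM, where the 8 leading keratins were all lower. Its log2 fold change was -2.57 ± 0.39 (SE, adjusted p = 0.00658 by limma), and within the keratins it was -4.92 ± 0.71 (SE, adjusted p = 0.0102). With a library left out these adjusted p values ranged from 0.0334 to 0.0753 and from 0.00487 to 0.0608. Krt73, a type II inner root sheath keratin named here because it was called in every scaling, was at 3.12 and 1.87 TPM against 5.28 and 13.1 TPM. Its log2 fold change was -1.45 ± 0.48 (SE, adjusted p = 0.0413) and within the keratins -3.83 ± 0.65 (SE, adjusted p = 0.0146).

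Krt35, a type I hair shaft keratin, was at 11.7 and 4.89 TPM against 15.7 and 21.7 TPM. The groups did not overlap, and its log2 fold change of -1.17 ± 0.46 (SE) did not pass on the deposited scale (adjusted p = 0.0689 by limma) but did within the keratins, at -3.97 ± 0.65 (SE, adjusted p = 0.0135). Krt71, a type II inner root sheath keratin, overlapped between the groups at 11.7 and 4.12 TPM against 4.34 and 18.2 TPM. Its deposited log2 fold change was -0.33 (adjusted p = 0.712), and within the keratins it was -3.02 ± 0.67 (SE, adjusted p = 0.0261).

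Krt79, a type II keratin of the hair canal and sebaceous duct, was the follicle keratin with the highest level in Itga6hi CD80pos, though not in Itga6low CD80neg, and was called higher in deposited TPM. It was at 119 and 272 TPM against 12.6 and 16.0 TPM, a called difference of 3.57 ± 0.50 on the log2 scale (SE, adjusted p = 0.00586 by limma). As a share of keratin TPM its values overlapped, and its log2 fold change there was 0.49 ± 0.62 (SE, adjusted p = 0.524). Without Krt79 the follicle keratins took 0.0735% and 0.0305% of keratin TPM in Itga6hi CD80pos and 1.15% and 0.763% in the Itga6low CD80neg libraries. The haemoglobin and fibroblast transcripts given above were higher in the same 2 libraries as these follicle keratins, and their part in the result was not tested.

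Of the mucosal and corneal keratins, Krt13 had the highest level. KRT13 is a type I keratin of internal stratified epithelia and is known to appear in chemically induced mouse skin tumours. Its level varied widely within both groups, at 397 and 12.0 TPM in Itga6hi CD80pos and 56.5 and 8.13 TPM in Itga6low CD80neg. Its replicate 2 stood at 0.0303 times replicate 1 in the first group and at 0.144 times in the second, and the groups overlapped. The log2 fold change was 1.65 ± 1.74 (SE) with an adjusted p of 0.427 by limma. Krt12, the type I keratin of the cornea, was called higher at a low level, 4.67 and 1.39 TPM against 0.00880 and 0 TPM (adjusted p = 0.0180). It was called in 1 of the 5 scalings, with adjusted p values from 0.0660 to 0.149 in the others.

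The simple-epithelial keratins were at very low levels in all 4 libraries. Krt23 had the highest value of the 6, at 0.964 and 1.40 TPM against 1.84 and 2.90 TPM, and did not pass on the deposited scale but was called lower in 3 of the other scalings. Krt18, the type I keratin of simple epithelia, was at 1.15 and 2.38 TPM against 0 and 0.0633 TPM, a called difference (adjusted p = 0.0153 by limma) in 1 of the 5 scalings, with adjusted p values from 0.0679 to 0.419 in the others. Krt8, its type II partner, was at 0.193 and 0.301 TPM and was listed at 0 in both Itga6low CD80neg libraries. The class took at most 0.0614% of keratin TPM in any library. Krt12 and Krt18 passed the filter for testing only through the Itga6hi CD80pos libraries, where they were high. Krt12, Krt18 and Krt8 were named after their values were seen.

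The upstream sequence is shown for 3 genes on which the comparison turns: Krt5, higher in every scaling; Krt75, lower in every scaling; and Krt10, whose share overlapped between the groups. Each is the 250 bases before the gene's start in RefSeq on GRCm38.p6, on the minus strand, written 5′ to 3′. Krt5 is at chr15:101712906-101713155, Krt75 at chr15:101573905-101574154 and Krt10 at chr11:99389365-99389614. Capitals mark a match to TATAAA or ATAAAA, forms of the TATA box that places the start of transcription.
Krt5: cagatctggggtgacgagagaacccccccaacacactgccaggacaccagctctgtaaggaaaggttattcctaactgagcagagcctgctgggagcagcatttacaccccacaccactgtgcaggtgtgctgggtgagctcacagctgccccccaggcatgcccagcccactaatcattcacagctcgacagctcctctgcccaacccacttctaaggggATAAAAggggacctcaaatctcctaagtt
Krt75: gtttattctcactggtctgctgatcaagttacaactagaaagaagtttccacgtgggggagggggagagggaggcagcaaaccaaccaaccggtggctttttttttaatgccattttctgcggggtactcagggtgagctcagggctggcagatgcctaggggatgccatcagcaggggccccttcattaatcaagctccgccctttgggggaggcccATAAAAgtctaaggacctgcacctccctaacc
Krt10: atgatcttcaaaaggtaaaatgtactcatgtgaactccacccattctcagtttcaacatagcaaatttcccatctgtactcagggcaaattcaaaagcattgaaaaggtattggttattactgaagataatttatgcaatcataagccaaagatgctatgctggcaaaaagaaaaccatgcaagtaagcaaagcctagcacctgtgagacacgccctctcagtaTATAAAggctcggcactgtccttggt
Among 37 windows of 36 keratins in the RefSeq table, 17 held TATAAA on either strand and 20 held ATAAAA, where 12.4% and 17.0% of all 32851 windows of this length did. The motifs can overlap, as in TATAAAA. The motif TGANTCA, a loose form of the AP-1 site, was in 2 keratin windows, both of Krt13, and in 6.75% of all windows. In the window at the GENCODE start of Krt13 the match reads TGAATCA. Matches reading TGACTCA were only in the other window, 989 bases from that start. A match is a description of these letters and not a measured site.

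The genes that anchor keratin filaments, which link them to desmosomes and hemidesmosomes, were higher in level in Itga6hi CD80pos, and none was called relative to keratin. Of 8 tested linker genes out of 10 listed, limma called 8 higher and none lower in deposited TPM, where 57.0% of all tested genes were higher. Their median log2 fold change was 2.75, against 1.27 over all tested genes. Dsp, which encodes the desmosomal plaque protein desmoplakin, was at 695 and 554 TPM against 43.4 and 33.3 TPM. Pkp1, which encodes plakophilin 1, was at 720.4 and 626 TPM against 38.1 and 61.0 TPM. With libraries set to the same keratin total, limma called 0 of the 8 in either direction, and 0 also had an unadjusted p under 0.05. Of all tested genes, 0.497% were called higher and 23.8% lower on that scale. By unadjusted p, 173 of the 13474 genes were higher and 5876 lower. The count of 0 higher is near that share and is not a result about the linker genes.

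Of 10 tested genes for keratin-binding and processing proteins, 6 were called higher and none lower, with a median log2 fold change of 1.87. Hspb1, a small heat shock protein that associates with keratin filaments, was at 1967 and 1329 TPM against 156 and 211 TPM. Fam83h, whose product binds keratins and recruits casein kinase 1, was at 60.1 and 55.3 TPM against 3.35 and 4.69 TPM. Relative to the keratin total none was higher and Tgm1, the keratinocyte transglutaminase, was lower. Of all tested genes, 0.497% were higher and 23.8% lower on that scale.

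Of 17 tested transcriptional regulators of keratin genes, 10 were called higher and none lower, with a median log2 fold change of 2.10. Tfap2a, the AP-2 alpha factor, was at 89.0 and 79.9 TPM against 3.13 and 4.90 TPM. Klf5, a Kruppel-like factor of basal epithelia, was at 140.002 and 128 TPM against 4.98 and 10.2 TPM. Relative to the keratin total 2 were lower, Cebpa and Cebpb, and none was higher, where 23.8% of all tested genes were lower. The lower counts for processing proteins and regulators were thus below that share and are not a result about these lists. With 57.0% of all tested genes called higher in deposited TPM, the counts for processing proteins and regulators were near the background.

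Among 16 other intermediate filament genes, vimentin and desmin differed in the opposite direction to the leading keratins. Of 6 tested, 4 were called higher and 2 lower in deposited TPM, where 57.0% and 9.48% of all tested genes were. Vim, the vimentin of mesenchymal cells, was at 6.66 and 21.4 TPM in the Itga6hi CD80pos libraries and at 856 and 723 TPM in the Itga6low CD80neg libraries. Des, the desmin of muscle, was at 0.118 and 0.186 TPM against 6.92 and 2.65 TPM. Both were called lower in all 5 scalings. Des passed the filter for testing only through the Itga6low CD80neg libraries, where it was high, so its calls are not independent of the filter. The nuclear lamins Lmnb1 and Lmnb2 were higher in deposited TPM, at 38.7 and 26.6 TPM against 2.00 and 4.62 TPM and at 17.7 and 11.5 TPM against 1.47 and 1.34 TPM.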

How the data were processed

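RNA was sequenced from cells of mouse skin carcinomas sorted by Itga6 and CD80. The deposited values are TPM per gene. The authors made them with kallisto 0.44.0 on the build mm10, per the submitters' processing notes; the annotation, the summing over transcripts and any filter are not given in the sources used here. Each column summed to 1000000, and 96 spike-in entries were left out.

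A gene was tested if 2 or more libraries reached 1 TPM, as log2(TPM + 1), with limma 3.58.1 in R 4.3.3 (eBayes with a trend, two-sided, Benjamini-Hochberg adjusted p under 0.05) over 13474 genes. The fit had been planned on 6 libraries and was made on 4. A log2 fold change on this scale understates the change of low genes. On simulated data with 100 genes changed by a log2 fold of 4 and 100 by 2, this comparison recovered 87 and 4, with 8 false calls. Far fewer genes changed there than were called in the data, where 57.0% were higher and 9.48% lower. The recovery therefore does not give the sensitivity in the data.

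The keratins and gene lists were chosen with earlier results of these data known. Keratins whose mean reached 10 TPM in a group are given per library, and of each list the called genes with the most extreme fold changes. Coordinates are from GENCODE M21 on GRCm38; 31-base words were compared over its transcripts. The alternatives were other pseudocounts and filters, 4 other scalings (median of ratios, haemoglobin left out, the keratin total, 12 epithelial genes), a replicate block and each library left out.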

Additional observations from a re-analysis of the deposited data

How the results depend on the processing

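Against 10 keratins called higher in deposited TPM, 3 were called with no filter on low values, 4 with median-of-ratios scaling, 4 with haemoglobin left out, 3 with the keratin total and 3 with the epithelial genes, and 0 to 11 with a library left out. Against 2 called lower, the counts were 7 with median-of-ratios scaling, 6 with haemoglobin left out, 14 with the keratin total, and 0 to 3 with a library left out. With the keratin total, leaving out a library gave 1 to 3 higher and 0 to 15 lower, and a total without Krt14 and Krt5 gave 9 lower; these combinations were chosen after the data were seen. Partner and regulator genes called numbered 30, and 16, 14, 5 and 2 under median-of-ratios, haemoglobin-free, keratin-total and epithelial scaling, and 0 to 34 with a library left out. The difference in keratin share of TPM, 6.92 percentage points, was 5.52 without haemoglobin, and 6.42 to 7.43 with a library left out. The type I share difference of -3.08 points became -13.7 with Krt14 left out of the total, and -5.64 to -0.53 with a library left out. Basal, stress, suprabasal, simple and follicle share differences kept their direction with each library left out. Among the 15 keratins given per library, log2 fold changes that changed sign with the keratin total were those of Krt16 (-0.92), Krt6b (-1.12), Krt1 (-1.36), Krt10 (-0.33), Krt17 (-0.24) and Krt13 (-1.36), and with the epithelial genes those of Krt16 (-0.11), Krt6b (-0.32), Krt1 (-0.55) and Krt13 (-0.58). With a library left out, the sign changed for Krt71 (-1.25 to 0.59) and Krt13 (-0.81 to 4.12) in deposited TPM. With the keratin total it changed for Krt13 (-3.66 to 0.93), Krt79 (-0.17 to 1.16), Krt17 (-0.75 to 0.27) and Krt6a (-0.013 to 0.17). The cause was not tested. Deviations from the group means of libraries with the same replicate number correlated at r = 0.109 across 13474 genes, which are not independent replicates; with 2 numbers per group this shows no pairing. With the replicate block, 11 of the 28 tested keratins were called higher and 5 lower, where 8044 and 1452 of all 13474 genes were. Krt13 (adjusted p = 0.00981 by limma) and Krt35 (0.0275) were among those gained. With the block and the keratin total, 3 and 13 keratins were called, where 67 and 2952 of all genes were. With no filter on low values 51 keratins were tested, and 4564 of all 30663 genes tested were called higher and 852 lower. Depth is unknown, so no limit of detection is given, and a value at 0 is only listed at 0. Leaving out a library leaves 1 sample in its group, which is assumed to vary like the other group, and prior degrees of freedom were infinite in the epithelial fit, in both block fits, and with the keratin total without either Itga6hi CD80pos library.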
